A study of Mus musculus with 10 samples.

Results

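Mouse cultures grown with the cytokine Lif were compared with cultures grown in FGF and EGF without Lif, to find the genes whose levels set the first apart from the second whatever the origin of the cells. All 10 arrays of the series entered: 6 Lif arrays from 3 cultures and 4 FGF/EGF arrays from 2 cultures, each culture with 2 replicates that the series' design text calls biological. The Lif arrays were ESC, pNSC_L and pNSC_LF. ESC were cells of R1, an embryonic stem (ES) cell line of 129/Sv origin, kept with 1000 U/ml of Lif and 15% serum on mitomycin-treated embryonic fibroblasts as feeders. pNSC_L were primary spheres of primitive neural stem cells that formed from ES cells in serum-free N2 medium with the same Lif and no feeders. pNSC_LF were those spheres dissociated and replated with the same Lif, 10 ng/ml FGF and 2 μg/ml heparin. The FGF/EGF arrays were dNSC and CNS_NSC, both in 20 ng/ml FGF, 20 ng/ml EGF, 2 μg/ml heparin and N2. dNSC were definitive neural stem cells passaged from the R1-derived primitive ones, with B27 supplement added. CNS_NSC, titled WT (wild-type) neural stem cells, came from the brain of E11.5 embryos of the ICR strain, with no B27 stated. By the labels the R1-derived groups thus come from 1 line, FGF was present in both arms, and serum and feeders in ESC only. Within this design the media cannot be told apart from the cell state that each medium carries. Nor can the origins of dNSC and CNS_NSC be told apart from their strains or from the stated B27.

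Lif binds its receptor Lifr together with the shared signalling chain gp130, whose gene is Il6st, and Jak kinases then phosphorylate the transcription factor Stat3. In mouse ES cells this route sustains Klf4, Tfcp2l1 and other factors of the naive pluripotent state, and Socs3 feeds back on the receptor. FGF and EGF act through receptor tyrosine kinases and the Ras-ERK cascade, whose feedback inhibitors include the Sprouty and Dusp genes, and together they keep neural stem cells dividing in culture.

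Each value is a log2 intensity of 1 probe set per gene, for 19938 genes. The lower quartile of probe sets lay at 6.39 to 6.49 on the arrays, so the size of a difference from a level under that is uncertain. Differences are the mean of the 3 Lif culture means minus the mean of the 2 FGF/EGF culture means, ± SE from limma over 6 and 4 arrays, and a gene is called where its Benjamini-Hochberg adjusted p was below 0.05. A gene is separated where the lowest array of 1 arm lay above the highest array of the other, and its gap is the distance between those 2 arrays. Only 3 and 2 cultures stand behind the arms. The p of limma measures spread between replicates of a culture, and where a difference between the arms is printed for a gene whose call was lost with the culture as a random block, that stricter p is given beside it. Arrays of bulk RNA cannot tell fewer cells of a type from less RNA per cell.

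Markers of the labelled cell types were read first. Pou5f1, the core pluripotency factor Oct4, read 12.66 to 13.04 (median 12.93) on the Lif arrays, 11.15 and 10.94 on dNSC and 6.97 and 6.92 on CNS_NSC. Nanog, its partner in the pluripotency network, read 12.72 to 13.02 (median 12.85) with Lif, 10.88 and 10.93 on dNSC and 7.18 and 7.21 on CNS_NSC. Nes, the neural stem cell filament nestin, read 6.94 to 7.48 (median 7.32) on the Lif arrays, 10.04 and 9.84 on dNSC and 11.42 and 11.63 on CNS_NSC. The dNSC arrays thus held both neural and pluripotency markers, with Pou5f1 higher than in CNS_NSC by 4.10 ± 0.11 (limma adjusted p = 8.49e-09). Nes read 7.26 and 6.94 on pNSC_L and 7.17 and 7.38 on pNSC_LF, no higher than the 7.48 and 7.47 of ESC. Hprt, a purine salvage enzyme made by most cells, read 6.99 and 6.75 on ESC and 10.45 to 11.60 on the 8 other arrays, and whether the ESC arrays are of the same line as the R1-derived ones was not tested. Without ESC 6950 genes separated the arms in place of 5717, and 965 in place of 719 by a gap of at least 1; fewer arrays can only add such genes.

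The arms differed widely. limma called 10269 of 19938 genes (51.5%), 5074 higher with Lif (25.4%) and 5195 higher with FGF and EGF (26.1%). With the culture as a random block 4728 were called (23.7%). Separated genes numbered 5717 (28.7%), of which 2875 (14.4%) were higher on all 6 Lif arrays and 2842 (14.3%) on all 4 FGF/EGF arrays. A gap of at least 1, which is 2-fold, was met by 719 genes (3.61%), 294 higher with Lif (1.47%) and 425 higher with FGF and EGF (2.13%). These 719 were chosen on the values, so their differences are given as a description. Gaps of at least 2 were found in 57 Lif and 118 FGF/EGF genes, and gaps of at least 3 in 6 and 22. Tfeb (1.0013) and Dgke (1.0024) lay just inside the limit on the Lif side, with Cpsf4l (0.9996) and Calcoco2 (0.9976) just outside it. On the FGF/EGF side Slc30a4 (1.0017) and Vopp1 (1.0020) lay inside, and Cd47 (0.9998) and Rarb (0.9981) outside.

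**Figure D1:**
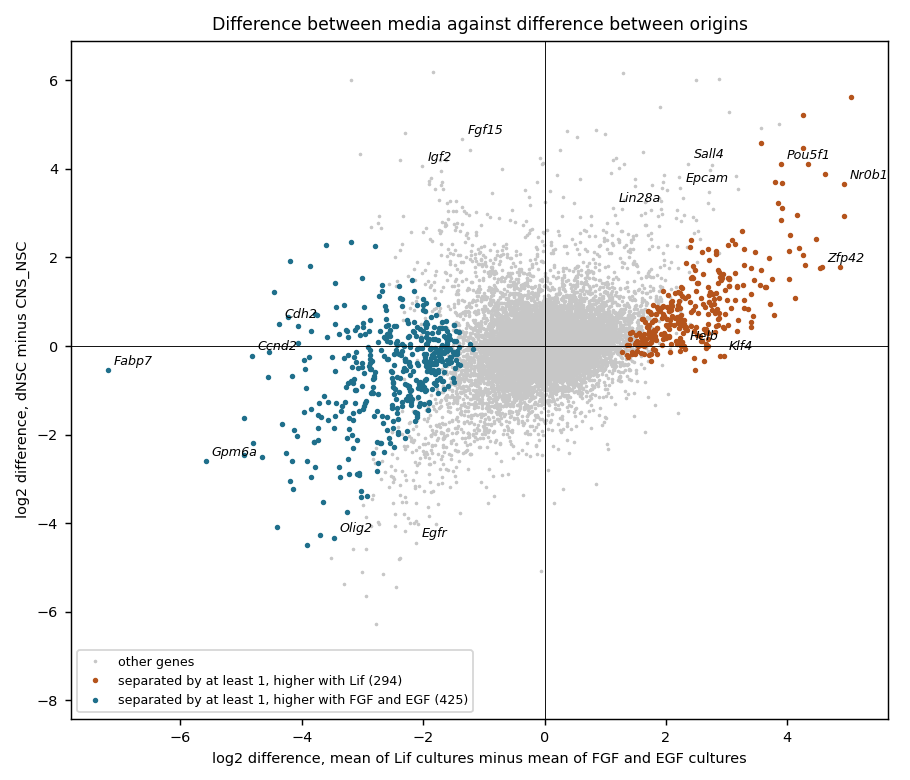
Each point is 1 of 19938 genes, with the log2 difference between the Lif and FGF/EGF means on the x axis and the log2 difference between dNSC and CNS_NSC on the y axis. The 294 brown genes were separated by at least 1 and higher with Lif, and the 425 blue ones were higher with FGF and EGF; most brown points (267 of 294) lie above 0 on the y axis, where dNSC was above CNS_NSC.

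The gene with the widest gap on the Lif side was Lrrc34, which encodes a leucine-rich repeat protein. It read 10.87 to 11.81 (median 11.23) on the Lif arrays, 7.26 and 7.38 on dNSC and 5.28 and 5.79 on CNS_NSC, a gap of 3.49. Zfp42, the zinc finger protein Rex1 and a standard marker of undifferentiated ES cells, read 11.85 to 12.16 (median 12.08) with Lif, 8.43 and 8.27 on dNSC and 6.29 and 6.86 on CNS_NSC. The FGF/EGF arrays lay at least 3.42 below the Lif arrays, with a difference of 4.58 ± 0.10 (23.9-fold, limma adjusted p = 3.97e-10). Triml2, a tripartite-motif-like gene that neighbours Zfp42, read 11.60 to 11.91 (median 11.70) with Lif, 7.97 and 8.18 on dNSC and 6.36 and 6.25 on CNS_NSC. Tcl1, a coactivator of Akt kinase, differed by 4.13 ± 0.07, and Fbxo15, an F-box protein long used as a reporter of pluripotency, by 4.93 ± 0.08. Esrrb, an orphan nuclear receptor of the naive network, read 11.89 to 12.11 (median 12.03) with Lif, 8.81 and 8.67 on dNSC and 7.34 and 7.11 on CNS_NSC, and differences among its 3 Lif cultures were not called by the limma F test (adjusted p = 0.643). The other Lif genes among the 15 widest gaps without a predicted name were Hspb1, a small heat shock protein, the germline ATPase Morc1, Nr0b1, a nuclear receptor also known as Dax1, Triml1, Trap1a, Laptm5, Serpinb6c, Arl14epl and Septin1, with gaps from 2.52 to 2.99.

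The 250 bases before the start site of Zfp42 are shown because this gene is a long-known target of Oct4 through an octamer site near its start. They come from RefSeq (GRCm38.p6, chr8:43307010-43307259, minus strand). Capitals mark an octamer (ATGCAAAT on either strand, here ATTTGCAT, starting 186 bases before the start site) and an E-box (CACCTG on either strand, 110 bases before it).
Zfp42 promoter: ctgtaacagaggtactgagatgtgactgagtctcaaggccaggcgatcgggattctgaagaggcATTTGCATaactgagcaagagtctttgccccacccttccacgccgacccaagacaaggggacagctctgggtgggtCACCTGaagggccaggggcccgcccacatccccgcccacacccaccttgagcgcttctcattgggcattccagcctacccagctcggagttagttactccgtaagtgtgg

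**Figure D2:**
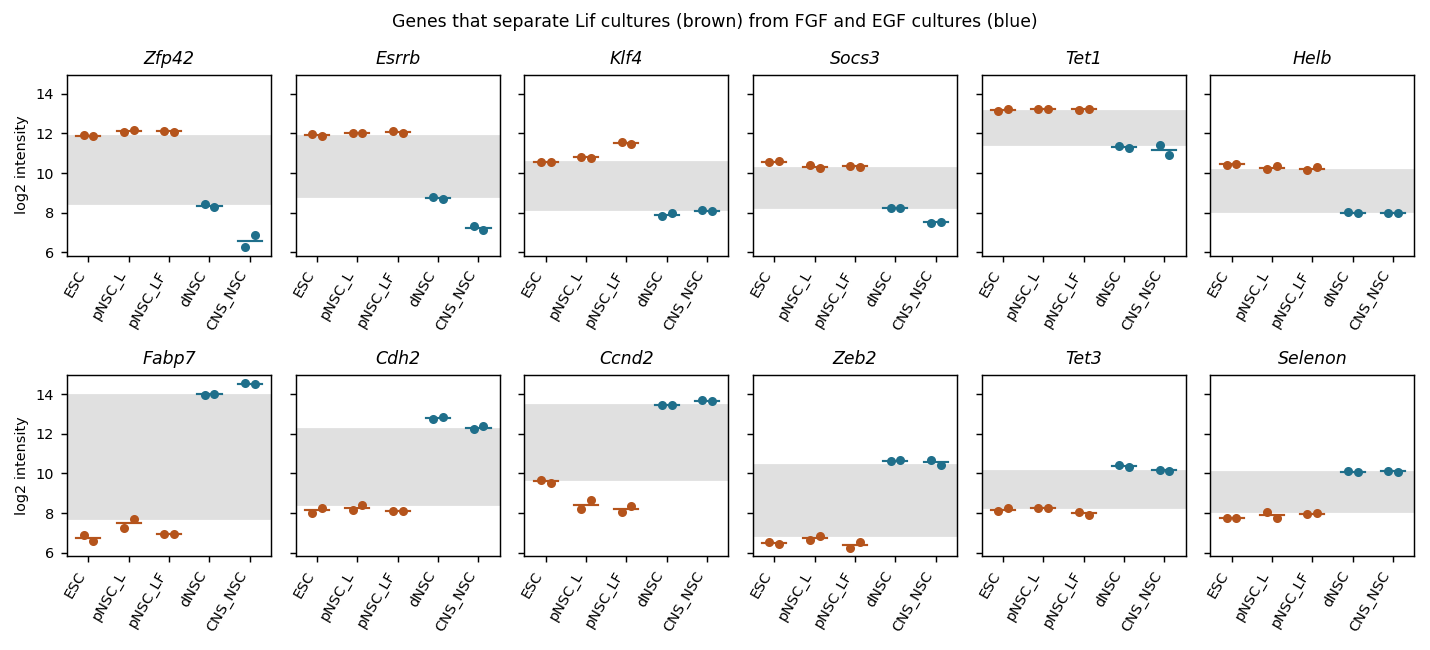
The log2 intensity (y axis) of 12 separated genes is shown for each of the 10 arrays by culture (x axis), with a bar at each culture mean. The grey band is the gap: all 6 brown Lif arrays lie on 1 side of it and all 4 blue FGF/EGF arrays on the other.

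Some Lif genes stood at nearly the same level in both FGF/EGF origins. Helb, DNA helicase B, read 10.14 to 10.44 (median 10.31) on the Lif arrays, 8.03 and 7.99 on dNSC and 8.01 and 7.99 on CNS_NSC. Here dNSC minus CNS_NSC was 0.01 ± 0.10, against 2.30 ± 0.07 between the arms. Eed, the Polycomb subunit that binds trimethylated H3K27, read 11.66 to 12.02 (median 11.78) with Lif, 10.16 and 10.26 on dNSC and 10.09 and 10.17 on CNS_NSC, a difference of 1.64 ± 0.06 (3.12-fold, limma adjusted p = 1.19e-08). Kat6b, a histone acetyltransferase, differed by 1.81 ± 0.08, Hebp1, a heme-binding protein, by 1.28 ± 0.08, and Sephs2, which makes the selenium donor for selenoproteins, by 1.49 ± 0.06. By the naming rule these 5 had the smallest summed spread within the arms on the Lif side. Klf4, a zinc finger factor of the naive network, read 7.83 and 7.96 on dNSC and 8.15 and 8.07 on CNS_NSC, but on the Lif arrays ran from 10.53 and 10.56 in ESC to 11.58 and 11.45 in pNSC_LF.

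On the FGF/EGF side Fabp7, the brain lipid binding protein of radial glia, had the widest gap of all genes, 6.23. It read 6.61 to 7.72 (median 6.94) on the Lif arrays, 13.95 and 14.02 on dNSC and 14.55 and 14.50 on CNS_NSC. The difference was -7.19 ± 0.10, or 146-fold higher with FGF and EGF (limma adjusted p = 8.74e-11), and dNSC minus CNS_NSC was -0.54 ± 0.15. Its highest Lif values were those of pNSC_L, 7.26 and 7.72. Gpm6a and Gpm6b, proteolipid-like membrane proteins of neural cells, had gaps of 3.99 and 3.56. Both were lower in dNSC than in CNS_NSC, Gpm6a at 10.40 and 10.47 against 13.17 and 12.90. Itgb8, an integrin subunit that activates TGF-beta, read 6.54 to 7.02 (median 6.92) with Lif, 10.98 and 11.04 on dNSC and 12.74 and 12.52 on CNS_NSC.

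Cdh2, the neural cadherin N-cadherin, read 8.02 to 8.39 (median 8.13) on the Lif arrays, 12.75 and 12.85 on dNSC and 12.22 and 12.37 on CNS_NSC. Here dNSC stood above CNS_NSC, by 0.51 ± 0.12. Ccnd2, the G1 cyclin D2, read 8.04 to 9.69 (median 8.50) with Lif, 13.43 and 13.46 on dNSC and 13.70 and 13.63 on CNS_NSC, a difference of -4.81 ± 0.10 (28.1-fold). ESC stood highest among the Lif cultures for Ccnd2, at 9.69 and 9.50, still at least 3.74 below the FGF/EGF arrays. Zeb2, a repressor of E-cadherin, read 6.24 to 6.84 (median 6.53) with Lif, 10.60 and 10.65 on dNSC and 10.69 and 10.43 on CNS_NSC, and its origins differed by 0.07 ± 0.14 (limma adjusted p = 0.774). The rest of the 15 widest gaps belonged to Calcrl, a receptor for calcitonin-gene-related peptides, the fibrillin Fbn2, the imprinted neuronatin gene Nnat, Slc35f1, Pou3f4, a POU factor of neural precursors, Fndc3c1, the growth factor Ptn and the semaphorin Sema6a. Those with the least spread within the arms were Selenon, a selenoprotein of the endoplasmic reticulum (-2.22 ± 0.07), Snx33 (-2.07 ± 0.09), Pabpc1l2b (-1.74 ± 0.08), Frmd4a (-1.23 ± 0.08) and Atxn7l3b (-1.18 ± 0.07).

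The origins of the FGF/EGF arrays ranked differently on the 2 sides. Of the 294 Lif genes, dNSC lay above CNS_NSC in 267 (90.8%), against 48.6% of all genes. limma called dNSC above CNS_NSC in 187 and below it in 2, beside 17.6% and 16.5% of all genes. The median difference from the Lif mean was -1.94 in dNSC and -2.66 in CNS_NSC. Of the 425 FGF/EGF genes, dNSC lay below CNS_NSC in 301 (70.8%, against 51.4% of all genes). It was called below in 205 and above in 58, and the medians were 2.05 in dNSC and 2.55 in CNS_NSC. The R1-derived dNSC therefore lay between the Lif arrays and CNS_NSC for most of the 719. The 3 Lif cultures differed by the F test in 125 of the 294 (42.5%) and in 23.8% of the 425, beside 16.6% of all genes. The share over all genes includes dim genes, whereas the 294 were chosen as high on the Lif arrays, so the 2 shares are not alike. With the dimmer 50% of genes left out the F test called 3200 of 9969.

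**Figure D3:**
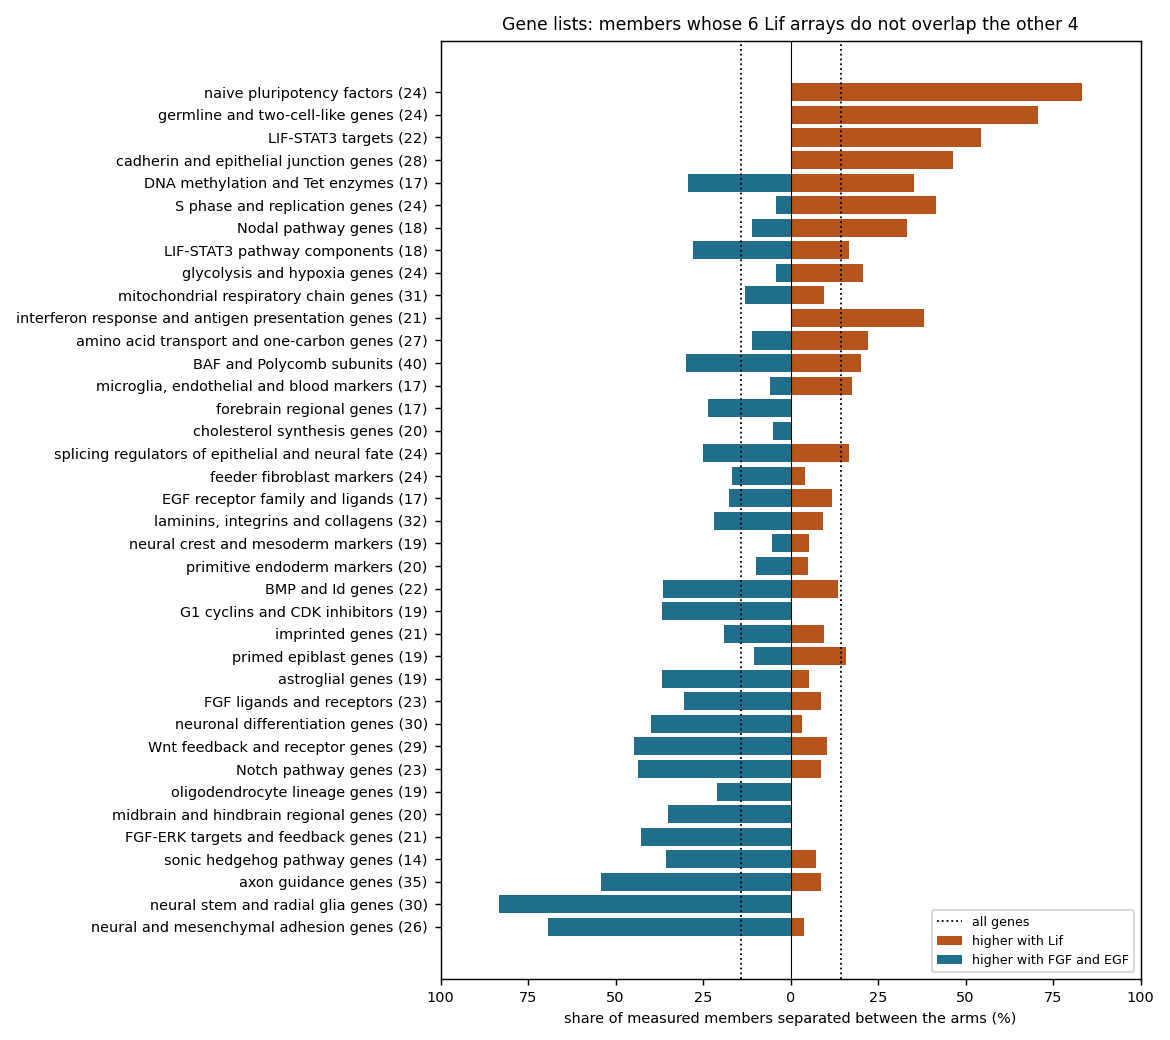
For each of 38 gene lists (number measured in brackets), the bars give the share of measured members separated between the arms, higher with Lif to the right and higher with FGF and EGF to the left, in percent. Dotted lines mark the shares over all genes, 14.4% and 14.3%; naive pluripotency factors reach furthest right and neural stem and radial glia genes furthest left.

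Calls in a list are set beside the shares over all genes: limma called 25.4% higher with Lif and 26.1% higher with FGF and EGF, and 14.4% and 14.3% were separated. Counts in brackets are the calls with the culture as a random block (the block), in the same order of direction, where the shares over all genes were 11.8% and 11.9% for Lif and for FGF and EGF.

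Of 24 measured naive pluripotency factors, 24 were called higher with Lif (20 with the block) and 20 separated, each by at least 1. Their median difference was 3.64, against -0.02 over all genes. Tdgf1, the Nodal co-receptor Cripto, read 12.73 to 13.26 (median 13.10) with Lif, 10.30 and 10.43 on dNSC and 6.39 and 6.55 on CNS_NSC. Fgf4, the FGF that ES cells secrete, read 11.12 to 11.87 (median 11.74) with Lif, 8.76 and 8.83 on dNSC and 7.60 and 7.62 on CNS_NSC. The members whose arms overlapped were Sox2, Sall4, Lin28a and Dppa3, and none of these 4 was called with the block (adjusted p = 0.213, 0.052, 0.228 and 0.185). Sox2, a factor of both ES and neural stem cells, read 12.81 to 13.22 (median 12.97) on the Lif arrays and 12.60 to 12.86 on the others; the difference of 0.27 ± 0.08 had a limma adjusted p of 0.0151. Sall4, a spalt zinc finger factor, read 11.83 and 11.64 on dNSC, across the lower edge of the Lif range of 11.77 to 12.35. It read 7.61 and 7.61 on CNS_NSC.

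Components of the LIF route were divided in direction. Of 18 measured components 10 were called higher with Lif and 6 lower (2 and 4 with the block), with 3 and 5 separated and a median of 0.24. Lif itself, the ligand gene, read 7.23 to 7.62 (median 7.39) with Lif, 7.05 and 6.90 on dNSC and 6.93 and 7.22 on CNS_NSC, a gap of only 0.01. Its difference of 0.39 ± 0.08 had a limma adjusted p of 0.00162, or 0.073 with the random block. Lifr, the ligand-binding receptor chain, read 10.77 to 11.46 (median 10.92) on the Lif arrays, 9.43 and 9.42 on dNSC and 10.72 and 10.96 on CNS_NSC. CNS_NSC lay across the lower edge of the Lif range, and the call (limma adjusted p = 2.35e-06) was lost with the random block (0.0626).

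Il6st, the shared gp130 chain, spanned 10.995 to 11.30 on the Lif arrays and 10.66 to 11.004 on the FGF/EGF arrays, a difference of 0.24 ± 0.07 that the random block did not call (adjusted p = 0.273). Stat3 stood on both sides of the Lif arrays: they read 10.72 to 11.06 (median 10.90), dNSC 9.71 and 9.61 and CNS_NSC 11.48 and 11.31. The dNSC arrays were the lowest, with dNSC minus CNS_NSC at -1.73 ± 0.12 (limma adjusted p = 1.89e-06). The kinase Tyk2 was higher with Lif (1.08 ± 0.06) and the kinase Jak2 lower (-1.82 ± 0.14), each without overlap. Cntfr, the receptor chain for ciliary neurotrophic factor, which also signals through gp130 and Lifr, read 7.94 to 9.25 (median 8.16) with Lif, 12.32 and 12.14 on dNSC and 10.95 and 10.44 on CNS_NSC, or 8.02-fold higher with FGF and EGF.

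Among 22 measured targets of LIF and Stat3, 16 were called higher with Lif and 2 lower (12 and 0 with the block), 12 were separated higher and 0 lower, and the median difference was 1.30. Socs3, the feedback inhibitor of the gp130 receptor, read 10.27 to 10.59 (median 10.37) with Lif, 8.25 and 8.25 on dNSC and 7.47 and 7.55 on CNS_NSC. Differences among the Lif cultures were not called by the F test (limma adjusted p = 0.188), and the arms differed by 2.53 ± 0.06 (5.79-fold, adjusted p = 6.35e-10). Tfcp2l1, a direct target of Stat3 in ES cells, differed by 4.19 ± 0.06, Tbx3 by 3.72 ± 0.06, Klf5 by 3.05 ± 0.08 and Klf2 by 1.83 ± 0.07, and each was separated. These genes and Esrrb, another of the targets, are also counted among the naive pluripotency factors, so those counts are not independent of each other. Socs3 is also counted among the components. Bcl3, an atypical I-kappa-B protein, differed by 2.09 ± 0.07 and the adhesion molecule Icam1 by 2.29 ± 0.07. The list's exceptions were Myc, which differed by -1.36 ± 0.11 in the other direction, Jund (-0.17 ± 0.06), both lost with the block (adjusted p = 0.061 and 0.608), and Junb, Gbx2, Ocln and Fos, which did not pass the test. The arms overlapped for Myc.

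The 250 bases before the Socs3 start site are shown because they hold the Stat motif TTCNNNGAA, which reads the same on both strands. They come from RefSeq (GRCm38.p6, chr11:117969367-117969616, minus strand), and the match, in capitals, begins 154 bases before the start site.
Socs3 promoter: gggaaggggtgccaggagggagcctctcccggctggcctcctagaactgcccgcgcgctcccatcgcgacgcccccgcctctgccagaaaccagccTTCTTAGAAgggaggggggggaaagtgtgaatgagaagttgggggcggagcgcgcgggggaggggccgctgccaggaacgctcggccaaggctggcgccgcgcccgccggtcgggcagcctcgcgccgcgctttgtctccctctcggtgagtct

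**Figure D4:**
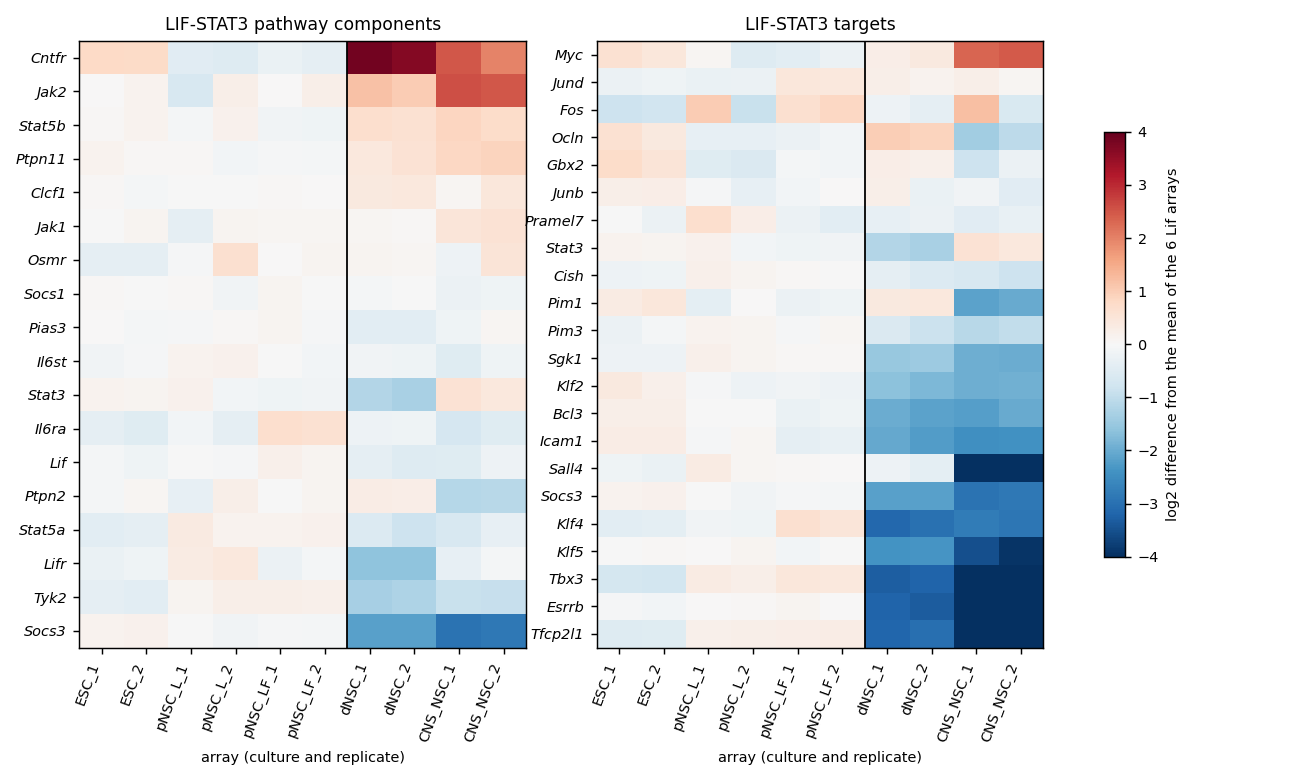
Colours give the log2 difference of each of the 10 arrays (columns) from the mean of the 6 Lif arrays, for measured components (left) and targets (right) of the LIF route, with red above and blue below that mean and colours capped at 4. The black line divides the Lif arrays from the FGF/EGF arrays; most cells at the right of the target panel are blue, while the component panel shows both colours.

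FGF genes leaned the other way. Of 21 measured FGF-ERK targets and feedback genes, 16 were called higher with FGF and EGF and 1 with Lif (9 and 0 with the block), and 9 and 0 were separated, with a median of -1.002. Spry1, a Sprouty inhibitor of receptor tyrosine kinase signalling, read 9.28 to 9.66 (median 9.38) with Lif, 12.16 and 12.12 on dNSC and 11.69 and 11.86 on CNS_NSC. Dusp6, the phosphatase that removes phosphate from ERK, read 10.01 to 10.56 (median 10.34) with Lif, 12.31 and 12.37 on dNSC and 11.92 and 12.16 on CNS_NSC. Both groups of arrays were tight, and pNSC_LF, which had FGF with Lif, read Spry1 at 9.51 and 9.38 and Dusp6 at 10.54 and 10.41, among the other Lif arrays.

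Other feedback genes varied within the Lif arm, with ESC highest and pNSC_L lowest. Spry4 read 11.88 and 11.76 on ESC, 10.79 and 10.40 on pNSC_L and 11.15 and 10.94 on pNSC_LF, against 11.06 and 10.99 on dNSC and 12.29 and 12.42 on CNS_NSC. The ETS factor Etv4 read 9.99 and 9.76 on ESC, 7.91 and 7.55 on pNSC_L and 8.74 and 8.52 on pNSC_LF, with 8.79 and 8.78 on dNSC. The arms overlapped for both genes, and neither was called with the random block (adjusted p = 0.385 and 0.572). Etv4 on CNS_NSC, at 9.73 and 9.60, was close to ESC.

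Of 23 FGF ligands and receptors measured, 17 were called higher with FGF and EGF and 5 with Lif (8 and 2 with the block). Fgfr1, the main FGF receptor of ES and neural cells, read 10.21 to 10.65 (median 10.55) with Lif, 11.51 and 11.45 on dNSC and 11.61 and 11.68 on CNS_NSC, and Fgfr4 differed in the opposite direction, by 0.42 ± 0.08. Of 17 genes of the EGF receptor family and its ligands, 10 were higher with FGF and EGF, 2 with Lif (3 and 2 with the block), and 5 did not pass the test. Separated members numbered 3 and 2 (17.6% and 11.8%), near the shares over all genes, 14.3% and 14.4%. Erbb3, a receptor for neuregulins, read 9.58 to 10.11 (median 9.93) with Lif, 8.56 and 8.53 on dNSC and 7.34 and 7.27 on CNS_NSC, higher with Lif by 1.95 ± 0.08. Its relative Erbb4 read 6.52 to 6.90 (median 6.57) with Lif, 10.70 and 10.65 on dNSC and 10.79 and 9.87 on CNS_NSC, 14.3-fold higher with FGF and EGF. Egfr, the receptor for the EGF in the medium, was not separated: it read 7.51 to 8.29 (median 8.06) on the Lif arrays, 7.91 and 7.76 on dNSC and 12.25 and 12.32 on CNS_NSC. The call for Egfr (-2.12 ± 0.07) was lost with the random block (adjusted p = 0.105), and without CNS_NSC the difference was 0.10.

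Junction and adhesion genes moved in opposite directions. Of 28 measured cadherin and epithelial junction genes, 22 were called higher with Lif, 0 lower (13 and 0 with the block) and 13 were separated, with a median of 0.98. The mean of this list was 9.14 to 9.38 on the Lif arrays, 8.99 to 9.08 on dNSC and 7.21 to 7.38 on CNS_NSC. The list difference was thus mostly that of CNS_NSC. Of 26 neural and mesenchymal adhesion genes, 21 were higher with FGF and EGF, 2 with Lif (18 and 1 with the block) and 18 against 1 separated, with a median of -2.07. Cdh1, the epithelial cadherin E-cadherin, read 11.75 to 12.18 (median 11.88) with Lif, 11.35 and 11.02 on dNSC and 7.03 and 7.19 on CNS_NSC. The R1-derived dNSC lay 0.40 below the lowest Lif array, and above CNS_NSC by 4.08 ± 0.13. Epcam, an epithelial adhesion molecule, likewise read 9.79 and 9.98 on dNSC, close under the Lif range of 10.12 to 10.54, and 6.13 and 6.49 on CNS_NSC.

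Cldn4, a tight junction claudin, and Gjb5, a connexin, were separated by at least 1, with differences of 2.72 ± 0.10 and 1.78 ± 0.10. Fn1, the matrix protein fibronectin, was 1 of the 2 members of the mesenchymal list called higher with Lif, by 2.29 ± 0.20, and read 12.80 and 12.73 on dNSC and 8.77 and 10.05 on CNS_NSC. In 35 axon guidance genes 26 were called higher with FGF and EGF and 4 with Lif (20 and 3 with the block), 19 and 3 separated. Sema3a, a repulsive guidance cue, read 6.004 to 6.68 (median 6.32) with Lif, 9.62 and 9.51 on dNSC and 10.72 and 11.40 on CNS_NSC, and the ephrin receptor Epha2 was higher with Lif by 1.59 ± 0.07.

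Neural identity lists lay on the FGF/EGF side, the glial ones mostly through CNS_NSC. Of 30 neural stem and radial glia genes measured, 29 were called higher with FGF and EGF, 0 with Lif (24 and 0 with the block), 25 separated and 10 by at least 1, with a median of -1.63; the remaining member, Prom1, did not pass the test (-0.55 ± 0.22). Pax6, a neural and eye factor, read 6.79 to 8.32 (median 7.03) with Lif, 9.26 and 9.36 on dNSC and 9.65 and 9.62 on CNS_NSC. Its highest Lif values, 8.32 and 8.23, were those of ESC. Sox1, a marker of neural commitment, differed by -0.65 ± 0.08, with 8.89 to 9.27 on the Lif arrays and 9.56 to 9.91 on the others. Rfx4, a factor of neural tube patterning, differed by -4.33 ± 0.06, and Ptprz1, a receptor phosphatase of glial precursors, by -4.40 ± 0.09.

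Of 30 neuronal differentiation genes, 22 were higher with FGF and EGF and 3 with Lif (12 and 1 with the block), with 12 and 1 separated. Map2, a dendritic microtubule protein, differed by -3.25 ± 0.08. Stmn2, a neuronal microtubule regulator, was the separated exception: it read 12.34 to 12.81 (median 12.52) on the Lif arrays, 11.41 and 11.42 on dNSC and 6.71 and 6.26 on CNS_NSC, so the level was lowest in the brain-derived cells. Of 19 astroglial genes 12 were higher with FGF and EGF and 2 with Lif (7 and 1 with the block), and of 19 oligodendrocyte lineage genes 12 and 1 (3 and 0 with the block). Separated members numbered 7 and 1 of the astroglial genes and 4 and 0 of the oligodendrocyte genes. The astroglial mean was 8.21 to 8.45 on the Lif arrays, 8.64 to 8.67 on dNSC and 10.15 to 10.17 on CNS_NSC. For the oligodendrocyte list it was 7.57 to 7.79, 7.97 to 8.06 and 9.09 to 9.90. In both lists dNSC lay closer to the Lif arrays than to CNS_NSC. Nfia, a factor of gliogenesis, read 7.03 to 7.76 (median 7.40) with Lif, 9.34 and 9.22 on dNSC and 12.71 and 12.91 on CNS_NSC. Olig2, a factor of motor neuron and oligodendrocyte precursors, read 6.85 to 7.22 (median 6.95) with Lif, 8.34 and 8.27 on dNSC and 12.54 and 12.72 on CNS_NSC. For both, dNSC was above the Lif arrays and CNS_NSC higher still, with dNSC minus CNS_NSC at -3.53 ± 0.12 and -4.33 ± 0.13.

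Regional genes were mixed in the forebrain list, with 8 of 17 higher with FGF and EGF, 2 with Lif (3 and 0 with the block) and 7 not passing. Otx1 and Emx2, forebrain homeobox factors, were separated by at least 1, with differences of -2.01 ± 0.08 and -2.28 ± 0.09. Of 20 midbrain and hindbrain genes 19 were higher with FGF and EGF and 0 with Lif (9 and 0 with the block) and 7 separated. Meis1 and Meis2, homeobox cofactors of Hox proteins, were the 2 separated by at least 1, at -2.98 ± 0.06 and -3.12 ± 0.09. Meis2 read 6.73 and 6.95 on ESC, 8.93 and 8.80 on pNSC_L and 9.55 and 9.59 on pNSC_LF, while the FGF/EGF arrays read 11.15 to 11.75. Zic1, a zinc finger factor of the dorsal neural tube outside these lists, differed by -4.19 ± 0.13.

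Signalling families other than FGF also leaned to the FGF/EGF side, apart from the Nodal pathway. Of 23 Notch pathway genes 18 were higher with FGF and EGF and 3 with Lif (8 and 2 with the block). Lfng, which glycosylates Notch receptors, read 7.86 to 8.20 (median 8.02) with Lif, 9.68 and 9.64 on dNSC and 11.42 and 11.72 on CNS_NSC, and Maml2, a Notch coactivator, differed by -4.08 ± 0.06, while Rbpj, the DNA-binding partner of Notch, was higher with Lif by 0.98 ± 0.07. Of 14 sonic hedgehog genes 10 were higher with FGF and EGF and 2 with Lif (6 and 1 with the block): the signal transducer Smo differed by -1.67 ± 0.07, the activator Gli2 by 1.04 ± 0.08. The hedgehog mean was 8.67 to 8.78 on the Lif arrays, 9.86 to 9.90 on dNSC and 8.84 to 8.88 on CNS_NSC. Its lean was thus mostly that of dNSC. Of 29 Wnt genes 18 and 5 were called (12 and 3 with the block), with Fzd3 and the ligand gene Wnt5a at -3.26 ± 0.09 and -3.000 ± 0.11 and Fzd5 at 1.37 ± 0.07.

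Of 18 Nodal pathway genes 11 were higher with Lif and 5 with FGF and EGF (6 and 3 with the block). Nodal read 9.72 to 10.47 (median 10.27) with Lif, 8.85 and 8.82 on dNSC and 7.59 and 7.87 on CNS_NSC. Its relative Gdf3 read 11.04 to 11.60 (median 11.27) with Lif, 9.01 and 9.04 on dNSC and 7.49 and 7.47 on CNS_NSC, and its antagonist Lefty2 differed by 2.95 ± 0.16. Of 22 BMP and Id genes 14 were higher with FGF and EGF and 6 with Lif (8 and 2 with the block). The ligand gene Bmp4 and the inhibitory Smad7 were higher with Lif, by 2.45 ± 0.26 and 2.92 ± 0.12, whereas Id2 and Id3, inhibitors of helix-loop-helix factors, stood at -1.95 ± 0.13 and -2.48 ± 0.13. For Bmp4 the CNS_NSC replicates read 9.25 and 7.54, wider apart than any other culture of that gene.

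Of 26 measured pairs of related genes, 17 had both members called in opposite directions, and 11 of these lost a member's call with the block, which left 6. The pairs were chosen with earlier results of these data known. The same 6 pairs had both members separated, in opposite directions: Cdh1 and Cdh2, Tet1 and Tet3, Klf4 and Klf12, Pou5f1 and Pou3f2, Fgfr4 and Fgfr1, Fabp3 and Fabp7. Tet1, a dioxygenase that oxidises 5-methylcytosine, read 13.11 to 13.25 (median 13.21) on the Lif arrays, 11.35 and 11.28 on dNSC and 11.40 and 10.93 on CNS_NSC. Tet3, of the same family, read 7.92 to 8.28 (median 8.18) with Lif, 10.43 and 10.32 on dNSC and 10.18 and 10.14 on CNS_NSC. The differences were 1.96 ± 0.09 and -2.12 ± 0.07, and neither gene was called between the origins (limma adjusted p = 0.474 and 0.148) or among the Lif cultures (0.945 and 0.183). Fabp3, the heart-type fatty acid binding protein, read 11.19 to 12.90 (median 12.72) with Lif, 9.76 and 10.01 on dNSC and 7.90 and 7.61 on CNS_NSC, opposite to Fabp7.

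Among the 11 were Ldha, at -0.65 ± 0.07, with Ldhb, at 1.47 ± 0.13, and Id1, at -0.62 ± 0.12, with Id4, at 0.96 ± 0.15, where Ldha, Id1 and Id4 were lost with the block (adjusted p = 0.147, 0.4 and 0.289). Smarca2, an ATPase of the BAF chromatin remodelling complex, was 6.95-fold higher with FGF and EGF, while its alternative Smarca4 differed by -0.25 ± 0.07 (adjusted p = 0.237 with the block). Ptbp2, the neural polypyrimidine tract binding protein, differed by -1.61 ± 0.11 and Ptbp1 by 0.07 ± 0.07. Actl6a and Actl6b, another BAF pair, were not called (adjusted p = 0.057 and 0.352 by limma).

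**Figure D5:**
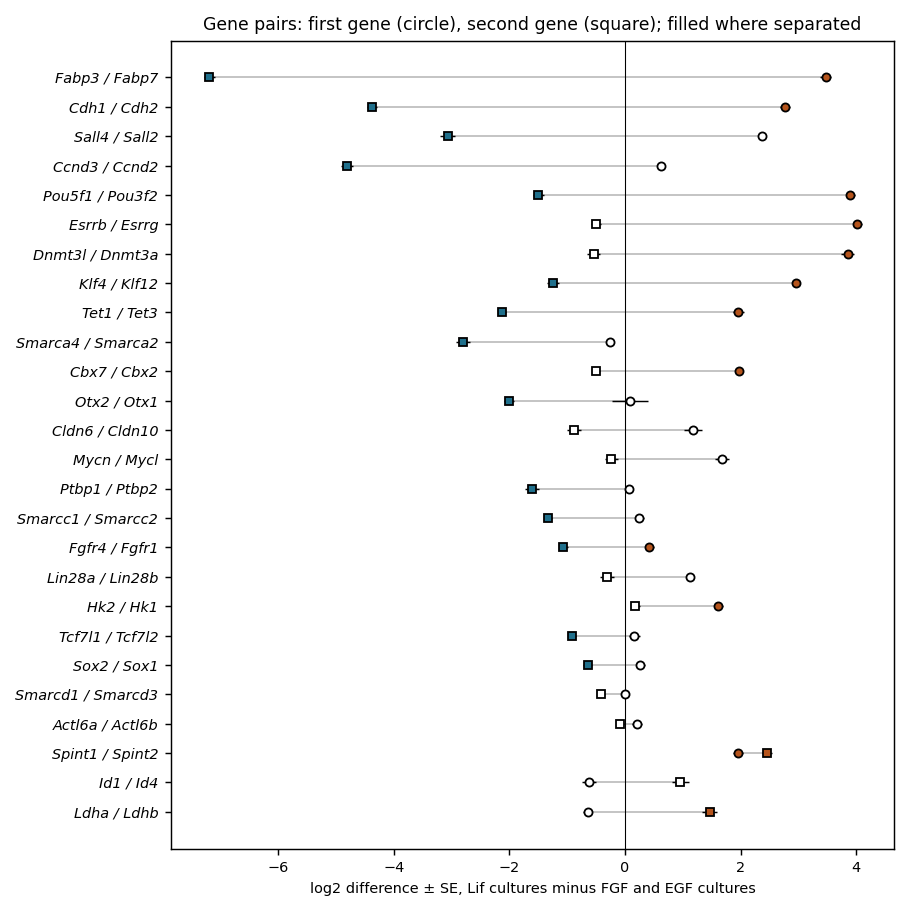
For 26 pairs of related genes, the x axis gives the log2 difference, Lif minus FGF/EGF, with its SE from limma, the first gene as a circle and the second as a square, filled where the arms did not overlap. In 6 pairs both symbols are filled and lie on opposite sides of 0; in Ldha with Ldhb, Id1 with Id4 and Spint1 with Spint2 the circle lies to the left of the square.

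Chromatin genes split within their lists. Of 17 DNA methylation and Tet genes 10 were higher with Lif and 6 with FGF and EGF (6 and 5 with the block). Dnmt3l, the cofactor of de novo methylation, read 11.36 to 12.12 (median 11.93) with Lif, 9.53 and 9.62 on dNSC and 6.07 and 6.63 on CNS_NSC. Of 40 BAF and Polycomb subunits 11 were higher with Lif, 19 with FGF and EGF (8 and 10 with the block) and 10 did not pass. Their mean was 10.29 to 10.32 on dNSC, 10.06 to 10.18 on the Lif arrays and 9.96 to 10.02 on CNS_NSC. The Polycomb members Cbx7 (1.97 ± 0.07), Mtf2 (1.67 ± 0.06), Suz12 (1.15 ± 0.09) and Jarid2 (1.14 ± 0.08) were higher with Lif, and Bmi1 (-1.93 ± 0.14) was lower.

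Germline and two-cell-like genes belonged to the Lif side: of 24 measured, 21 were called higher, 0 lower (18 and 0 with the block) and 17 separated, with a median of 1.49. On all 10 arrays 5 of the 24 lay below the lower quartile, so the sizes of their differences are uncertain. Mael, a protein of the germline piRNA pathway, read 9.84 to 10.63 (median 10.31) with Lif, 7.55 and 7.61 on dNSC and 5.93 and 6.24 on CNS_NSC, and Dazl, a germ cell RNA-binding protein, 8.98 to 9.79 (median 9.41) with Lif, 7.08 and 7.08 on dNSC and 6.44 and 6.29 on CNS_NSC. Dazl thus stood near or under the lower quartile on CNS_NSC. Sycp3, of the meiotic synaptonemal complex, differed by 4.15 ± 0.28. Of 24 S phase genes 18 were higher with Lif and 3 lower (9 and 1 with the block), with a median of 0.45; Mcm10 and Mcm3, of the replication machinery, differed by 1.05 ± 0.07 and 0.96 ± 0.07, and cyclin E2, Ccne2, by -1.11 ± 0.08.

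Among 19 G1 cyclins and CDK inhibitors, 12 were higher with FGF and EGF and 5 with Lif (7 and 0 with the block). Ccnd1, cyclin D1, read 9.31 to 10.997 (median 10.18) with Lif, 11.84 and 11.84 on dNSC and 13.40 and 13.62 on CNS_NSC, and Ccnd3 differed by 0.62 ± 0.07 (adjusted p = 0.122 with the block), a difference of -0.01 without CNS_NSC. Of 24 glycolysis and hypoxia genes 9 were higher with Lif and 5 lower (4 and 1 with the block), with a median of 0.11. The phosphofructokinase Pfkp (2.26 ± 0.10), Pdk1, a kinase that restrains pyruvate dehydrogenase (1.64 ± 0.08), and the hexokinase Hk2 (1.61 ± 0.08) were separated. In 31 respiratory chain genes 12 were called higher with Lif and 7 lower (3 and 3 with the block) and the median was 0.09. The origins lay on opposite sides, with a list mean of 10.30 to 10.36 on dNSC, 10.64 to 10.87 on the Lif arrays and 10.98 to 10.99 on CNS_NSC. With 9.68% and 12.9% of its members separated, that list lay below the shares over all genes, 14.4% and 14.3%. The coactivator Ppargc1a, which drives mitochondrial genes, was separated by only 0.26, since dNSC read 6.42 and 6.36 and CNS_NSC 11.41 and 11.59.

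Cholesterol synthesis genes were called higher with FGF and EGF in 10 of 20 and with Lif in 1 (1 and 0 with the block), with 1 separated, Sc5d (-0.85 ± 0.10). The mean of the list was 9.69 to 9.71 on dNSC, 10.11 to 10.29 on the Lif arrays and 11.02 to 11.23 on CNS_NSC. The origins thus lay on opposite sides of the Lif arrays. Of 27 amino acid and one-carbon genes 12 were higher with Lif and 11 lower (6 and 4 with the block). Their mean was 11.05 to 11.06 on dNSC, 10.46 to 10.96 on the Lif arrays and 9.90 to 10.02 on CNS_NSC. The cystine transporter gene Slc7a11 read 5.96 to 8.15 (median 6.96) with Lif, 11.77 and 11.73 on dNSC and 9.60 and 9.35 on CNS_NSC, and Slc38a4, a neutral amino acid transporter, was higher with Lif by 2.70 ± 0.22. Of 21 imprinted genes 13 were higher with FGF and EGF and 6 with Lif (5 and 3 with the block), with Mest at -3.04 ± 0.07 and Rian, a noncoding RNA of the Dlk1 domain, at 2.35 ± 0.11. The imprinted list also split by origin, with a mean of 10.71 to 10.74 on dNSC, 9.32 to 9.57 on the Lif arrays and 8.98 to 9.14 on CNS_NSC. Of 21 interferon and antigen presentation genes 9 were higher with Lif and 3 lower (8 and 0 with the block), 8 and 0 separated, although the median was -0.01. The transmembrane protein Ifitm3 was the only member separated by at least 1, at 1.93 ± 0.12, and the factor Irf1 differed by 0.92 ± 0.07.

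Of 24 splicing regulators, 12 were higher with FGF and EGF and 9 with Lif (6 and 3 with the block). Celf2 and Nova1, RNA-binding proteins of neural cells, differed by -2.95 ± 0.07 and -2.25 ± 0.08. Rbm47, an epithelial RNA-binding protein, differed by 2.89 ± 0.09, and its lowest Lif arrays were those of ESC, 9.43 and 9.47. Of 32 laminins, integrins and collagens 18 were higher with FGF and EGF and 7 with Lif (6 and 3 with the block), with 7 and 3 separated. Lama5 and Itgb3 were on the Lif side (0.92 ± 0.14 and 0.57 ± 0.09) and Itga8 on the other (-1.17 ± 0.08).

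A large difference between the arms did not always separate the arrays. Of 2557 genes called at 2-fold or more, 333 overlapped between the arms. Leaving out dNSC separated 199 of these, leaving out CNS_NSC 137, ESC 104, pNSC_L 41 and pNSC_LF 30. Igf2, an imprinted growth factor, shows this: it read 8.11 to 8.37 (median 8.18) on the Lif arrays, 12.31 and 12.21 on dNSC and 8.17 and 8.21 on CNS_NSC. CNS_NSC lay inside the Lif range, and the difference of -2.02 ± 0.07 was not called with the random block (adjusted p = 0.0884). Mycn, a Myc family factor, was the mirror case, at 10.48 and 10.34 on dNSC inside a Lif range of 10.17 to 10.68 and 6.78 and 7.48 on CNS_NSC, with a random block adjusted p of 0.096.

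dNSC against the Lif mean gave 8949 calls (44.9%) and CNS_NSC against the same Lif mean 9563 (48.0%). These comparisons share the Lif arrays. In 687 genes both were called and on opposite sides, 381 with dNSC above and CNS_NSC below and 306 the reverse. dNSC and CNS_NSC themselves differed in 6783 genes (34.0%). Fgf15, a secreted FGF of the early neural tube, read 8.27 to 9.27 (median 8.75) with Lif, 12.43 and 12.48 on dNSC and 7.69 and 7.85 on CNS_NSC. It differed from the Lif mean by 3.70 ± 0.10 in dNSC and -0.98 ± 0.10 in CNS_NSC, so its difference between the arms (-1.36 ± 0.08, adjusted p = 0.36 with the block) describes neither origin.

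Primed epiblast genes showed this pattern as a list, with 11 of 19 called higher with FGF and EGF, 6 with Lif (3 and 3 with the block), and 2 and 3 separated. The mean of the list was 10.12 on both dNSC arrays, 8.02 to 8.23 on CNS_NSC and 8.69 to 9.11 on the Lif arrays. Fgf5, the classic marker of the primed epiblast, read 7.03 to 7.95 (median 7.58) with Lif, 10.18 and 10.27 on dNSC and 7.26 and 7.12 on CNS_NSC. Otx2 read 9.23 to 11.14 (median 10.48) on the Lif arrays, 11.99 and 11.97 on dNSC and 7.43 and 9.53 on the CNS_NSC replicates, which lay far apart, and its difference between the arms was not called by limma (adjusted p = 0.845). Lin28a, an RNA-binding inhibitor of let-7, read 10.03 to 10.50 (median 10.33) with Lif, 10.71 and 10.74 on dNSC and 7.68 and 7.53 on CNS_NSC, and Lin28b 7.81 to 8.83 (median 8.11) with Lif, 10.27 and 10.39 on dNSC and 7.08 and 6.54 on CNS_NSC.

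The array also held 298 miRNA genes by name, of which 19 (6.38%) were separated higher with Lif and 18 (6.04%) higher with FGF and EGF, against 14.4% and 14.3% of all genes, and 271 matched a RefSeq miRNA. The probes read the gene or its precursor, not the mature form. The mature 5′ strands of the genes with gaps of at least 0.7, a limit set after their values were seen, are shown with the seed (bases 2 to 8) in capitals, from RefSeq (GRCm38.p6), because miRNAs act through the seed. Mir181b-1 and Mir181b-2 give the same mature strand from chromosomes 1 and 2.
mmu-miR-181b-5p: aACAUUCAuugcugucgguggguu
mmu-miR-99a-5p: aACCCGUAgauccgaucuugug
mmu-let-7c-5p: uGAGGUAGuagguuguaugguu
mmu-miR-196a-5p: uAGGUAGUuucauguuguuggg
The 4 seeds differ. Mir181b-1 (chr1:137966650-137966673 for the mature strand) read 5.13 to 5.53 (median 5.32) on the Lif arrays, 8.47 and 8.52 on dNSC and 9.46 and 8.64 on CNS_NSC. Mir181b-2 (chr2:38853845-38853868) read 5.82 to 6.40 (median 6.15) with Lif, 8.67 and 8.75 on dNSC and 8.10 and 7.46 on CNS_NSC, and these were the only 2 miRNA genes separated by at least 1.

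Mir99a and Mirlet7c-1, which lie within 1 kb of each other on chromosome 16, were both higher with FGF and EGF, by -1.96 ± 0.09 and -1.45 ± 0.15 as Lif minus FGF/EGF. Their Lif levels, 5.16 to 5.62 and 4.11 to 5.01, were below the lower quartile of the arrays. Mir196a-1, in the Hoxb cluster, ran the other way, at 6.66 to 7.46 (median 7.25) with Lif, 5.78 and 5.73 on dNSC and 5.88 and 5.83 on CNS_NSC. Its FGF/EGF levels were likewise below the lower quartile, so the sizes of these differences are uncertain. Mir100hg, the host transcript of another let-7 and miR-99 family cluster, differed by -2.85 ± 0.15.

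Promoters of the separated genes were described from RefSeq sequences of 250 bases before the start site (GRCm38.p6): 306 promoters of 223 of the 294 Lif genes, 473 of 336 of the 425 FGF/EGF genes and 19116 of 15563 genes in all. The median ratio of observed to expected CpG was 0.476 for Lif genes, 0.658 for FGF/EGF genes and 0.576 over all promoters. A ratio under 0.6 was found in 64.4% of Lif promoters, 44.2% of FGF/EGF promoters and 52.0% of all. The E-box CACCTG, on either strand, the core of the Zeb and Snail site, was in 25.8% of Lif promoters, 14.4% of FGF/EGF promoters and 16.9% of all. TTCNNNGAA was in 5.88%, 4.65% and 6.57%, and the octamer ATGCAAAT, on either strand, in 2.61%, 1.90% and 1.50%. A motif is a match of letters in this window and no evidence of binding.

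The promoters of the genes with the widest gap on each side are shown with every CG in capitals. Lrrc34 (GRCm38.p6, chr3:30647819-30648068, minus strand) holds 9 CG pairs and has a ratio of 0.478, near the Lif median. Fabp7 (chr10:57784673-57784922, plus strand) holds 4 and has a ratio of 0.214, far under the median of its own side, so it is no example of that median.
Lrrc34 promoter: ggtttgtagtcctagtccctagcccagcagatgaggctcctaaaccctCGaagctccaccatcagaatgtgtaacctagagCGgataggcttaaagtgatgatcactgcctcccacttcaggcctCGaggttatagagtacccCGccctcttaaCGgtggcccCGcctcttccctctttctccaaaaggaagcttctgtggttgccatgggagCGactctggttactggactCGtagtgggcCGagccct
Fabp7 promoter: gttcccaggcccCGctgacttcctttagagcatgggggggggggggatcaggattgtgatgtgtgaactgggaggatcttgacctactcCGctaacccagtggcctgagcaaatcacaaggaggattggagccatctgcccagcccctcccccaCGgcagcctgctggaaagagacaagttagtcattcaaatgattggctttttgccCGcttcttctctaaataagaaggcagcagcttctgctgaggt

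Some separated genes lay side by side in the genome. Of 292 Lif genes with a RefSeq place, 37 (12.7%) had a neighbour among the measured genes that was also higher with Lif by a gap of at least 1, against 2.86% of all 19856 placed genes. On the FGF/EGF side it was 38 of 425 (8.94%), against 4.15%. Triml1, Triml2 and Zfp42 formed a run, as did Dppa4, Dppa2 and Morc1, and Dppa5a, Ooep and Ddx43. Lrrc34, Lrriq4 and Lrrc31 formed another, and Gpa33 lay beside Mael. On the FGF/EGF side the protocadherins Pcdhb17 to Pcdhb22 formed a run of 6, and Lrrc8b lay beside Lrrc8c. Paralogs that lie together, such as the Pcdhb, Triml and Zfp979 to Zfp991 genes, may share probe sequence, so their members are uncertain as separate measurements.

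Markers of other cell types were read on every array. The mean of 24 feeder fibroblast markers was 7.57 to 8.07 on the Lif arrays, 8.40 to 8.46 on dNSC and 7.76 to 7.79 on CNS_NSC, with 2 called higher with Lif and 13 with FGF and EGF (1 and 3 with the block). Dcn, the matrix proteoglycan decorin, read 6.06 and 6.48 on ESC, the culture with feeders, 8.79 and 10.41 on pNSC_L, 9.54 and 9.54 on dNSC and 6.55 and 6.15 on CNS_NSC. The mean of 20 primitive endoderm markers was 7.60 to 7.97 on the Lif arrays, 8.56 to 8.60 on dNSC and 7.61 on both CNS_NSC arrays. Gata6, a defining endoderm factor, read 8.16 to 8.88, 9.61 and 9.76 and 8.02 and 8.05. The mean of 19 neural crest and mesoderm markers was 7.42 to 7.76, 8.11 to 8.17 and 7.34 to 7.36.

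Blood, endothelial and microglial markers lay at 7.17 to 7.38, 7.46 to 7.51 and 6.92 to 6.97, with Ptprc, a defining blood marker, at 5.70 to 6.24 on the Lif arrays and 6.06 to 6.26 on the others, under the lower quartile. Pecam1 of that list, also made by ES cells, was higher with Lif by 3.14 ± 0.10. The part of other cell types in the differences between the arms was not tested. Separated members, higher with Lif and higher with FGF and EGF, numbered 1 and 4 of the 24 fibroblast markers and 1 and 2 of the 20 endoderm markers. They numbered 1 and 1 of the 19 crest and mesoderm markers and 3 and 1 of the 17 blood, endothelial and microglial ones. Over all genes 14.4% and 14.3% were separated. Calls in that order were 3 and 11 for endoderm (0 and 2 with the block) and 3 and 9 for crest and mesoderm (1 and 1). They were 4 and 5 for blood, endothelium and microglia (3 and 1), where limma called 25.4% and 26.1% of all genes.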

How the data were processed

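RNA of 10 cultures was hybridised to Affymetrix whole-transcript arrays, as the labels' protocols state. The authors deposited log2 intensities for 35556 probe sets on each array, made with RMA and Partek per the submitters' processing notes, with no version named. No source states the log base, taken as 2 from the range of the values; array medians lay at 7.66 to 7.76. RMA corrects background, brings arrays to like distributions and combines probes, and differences of dim probe sets come out smaller for it. One gene symbol was given for 21789 probe sets, several for 1621 and none for 12146. Those with 1 symbol were used, 21698 of them matched a RefSeq gene, and for 999 genes with more than 1 the probe set with the highest mean was kept. This gave 19938 genes. No value was filtered or rescaled. The arrays' genome build was not given in the sources used here. Scan batches were not analysed here. Coordinates and sequences are those of RefSeq (GRCm38.p6).

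The members, the 38 gene lists (937 entries, 878 measured) and the 28 gene pairs were chosen with earlier results of these data known. One mean per culture was fitted over the 10 arrays with limma 3.58.1 in R 4.3.3. The difference between arms had a median SE of 0.083, on 5 residual plus 4.9 prior degrees of freedom. Adjusted p-values are Benjamini-Hochberg values over the 19938 genes, called at 0.05. The comparisons share the Lif arrays. Lists are described by counts and medians with no test of the list. The replicate numbers were not taken as pairs: deviations of same-numbered arrays correlated at -0.1073 to 0.375 over 10 pairs of cultures, 6 of them above 0.1. The series' design text calls the samples biological replicates, and across genes replicates correlated at 0.9885 to 0.9972.

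Genes were named by rule: the 15 widest gaps on each side among called and separated genes without predicted names, the 5 on each side with the least spread within the arms at a gap of at least 1, up to 2 called separated members per list and direction or else the member with the largest difference, both genes of each pair and a set of landmark genes. The rule gave 204 genes. Members named to explain a list's count, the miRNA genes, Dcn, Gata6, Ptprc and genes of genomic runs lie partly outside it, chosen with their values in view. Simulated data were used to test the fit. The alternatives comprised quantile and cyclic loess normalization, leaving out the dimmest genes, robust and unmoderated variances, array weights, the replicate block, 6 against 4 arrays, the culture as a random block, the mean of all probe sets, and leaving out each replicate or culture. Python 3.11.15, pandas 2.3.3 and matplotlib 3.10.9 prepared tables and plots.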

Additional observations from a re-analysis of the deposited data

Results flagged for a closer look

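In 11 of the named genes dNSC and CNS_NSC were both called by limma and lay on opposite sides of the Lif mean, so that the difference between the arms describes neither origin. dNSC was the higher in 10 of them. As dNSC minus CNS_NSC, Fgf15 differed by 4.68, the tight junction gene Cldn6 by 4.24, the epithelial splicing regulator Esrp1 by 3.77, Lin28b by 3.52, Otx2 by 3.50, Lin28a by 3.13, Fgf5 by 3.04, the DNA methyltransferase gene Dnmt3b by 2.59, the Wnt pathway repressor Tcf7l1 by 1.29 and Ptbp1 by 0.89. Stat3 differed by -1.73, with dNSC the lower.

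An array stood apart from the rest of its arm in 10 of 408 groups of a named gene and an arm, by the gap to its nearest neighbour; chance flags about 1 in 20 groups. Within the FGF/EGF arm these were CNS_NSC replicate 2 for Erbb4 (9.87, the lowest), Gas1 (10.28, the highest), Hprt (11.19, the highest) and Kat6b (9.44, the lowest), and CNS_NSC replicate 1 for Il6st (10.66, the lowest) and Pdgfra (10.89, the highest). Within the Lif arm they were pNSC_L replicate 1 for Irf1 (9.07, the highest) and Jak2 (7.45, the lowest), and pNSC_L replicate 2 for Mthfd1 (11.38, the lowest) and Triml1 (11.67, the highest). CNS_NSC and pNSC_L were also the cultures whose replicates differed most over all genes, with 277 and 167 genes at least 2-fold apart against at most 30 in the others.

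Among 13767 probe sets with no or several symbols, which the comparison did not use, 0.639% separated the arms by at least 1, of which 28 were higher with FGF and EGF and 60 with Lif.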

How the results depend on the processing

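The count of genes called between the arms moved with how cultures were treated: 10269 became 6776 when the 6 and 4 arrays were compared without cultures and 4728 with the culture as a random block. The paired fit, with a replicate block, gave 10499. Of 204 named genes, 195 were called; the random block lost 33 of these calls and the 6 against 4 comparison 24. Separated genes rose from 5717 to 9355 without CNS_NSC and 9268 without dNSC, and those with a gap of at least 1 from 719 to 1241 and 1858; fewer arrays can only add such genes. Calls among the 3 Lif cultures numbered 1841 by the unmoderated test, and 1450 to 4622 when each replicate was left out in turn, fewest without ESC replicate 1. Quantile normalization gave 5620 of 10502 calls higher with Lif, against 5074 of 10269. The other counts stayed within 1.5 times under the alternatives run.

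Without CNS_NSC the difference between the arms turned for Ccnd3 (-0.0136), Cldn6 (-0.94), Dnmt3b (-0.62), Egfr (0.10), Esrp1 (-1.31), Id1 (0.0057), Lin28a (-0.43), Otx2 (-1.66), Ptbp1 (-0.38), Spry4 (0.13) and Tcf7l1 (-0.48), and Otx2 also without CNS_NSC replicate 1 (-0.43; 0.61 without replicate 2). Without dNSC it turned for Fgf15 (0.98), Fgf5 (0.39), Igf2 (0.016), Lin28b (1.44) and Stat3 (-0.50), without pNSC_L for Etv4 (0.029) and without ESC for Hprt (0.74). The cause was not tested. Signals near background, with 32 of 294 Lif genes and 68 of 425 FGF/EGF genes below the lower quartile in the lower arm, limit how well those sizes are known.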
